A study of Mus musculus with 16 samples.

Results

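Splenic memory CD4+ T cells sorted as CD25low/- still carried the transcripts of 8 genes that are known as a signature of regulatory T cells (Treg): Foxp3, Il2ra, Ikzf2, Ctla4, Tnfrsf18, Lrrc32, Izumo1r and Nrp1. These 8 genes were taken by their symbols from the 56748 genes of the deposited tables, with no filter on their values. The choice was made with earlier results of these data known. The 16 RNA-Seq samples comprised HP1α KO and HP1γ KO cells and cells of WT littermates from each of these mouse lines, with 4 samples in every group. HP1α and HP1γ are proteins that bind methylated histone H3 lysine 9 in silenced chromatin, and are encoded by Cbx5 and Cbx3.

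The cells came from unmanipulated male mice, 6 to 12 weeks of age and of mixed background (129/Sv x C57BL/6), and were sorted as CD4+ CD25low/- CD62L- CD44high. HP1α KO mice carried a deletion of Hp1a made in the germline with CMV-cre, and their WT controls were Hp1a+/+ littermates from heterozygous parents. HP1γ KO mice carried Hp1g flox/flox and Cd4-cre, which deletes in T cells, whereas their WT littermates carried Hp1g flox/flox without Cre. The presence of Cre and the loss of HP1γ therefore cannot be told apart. Nothing in the labels says that the 4 samples of a group came from separate animals, so that p-values measure the spread between these samples, part of which may be technical.

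Treg are CD4+ T cells that restrain the responses of other T cells, and the transcription factor FOXP3 is required for their identity. CD25, the product of Il2ra, completes the high-affinity receptor for IL-2 and is abundant on most Treg, which is why a gate on low CD25 removes many of them. Several genes of the signature are also switched on in activated or memory cells that are not Treg, and a transcript in a bulk sample can come from a few cells with many copies or from many cells with few. In these bulk samples, fewer cells of a type and less RNA per cell cannot be told apart.

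The samples held between 26694045 and 40199637 estimated counts (median 32360727). Cd4 was at 1017 to 1367 CPM (counts scaled to library size with TMM factors), and Cd44 at 258 to 377 CPM. Of the markers of other cells, Cd8a did not exceed 7.38 CPM, Ncr1 0.372 CPM and the platelet genes Pf4 and Gp9 0.536 and 0.269 CPM. Others reached the levels of the signature genes, with Siglech up to 110.0 CPM, Lyz2 up to 83.0, Bst2 up to 79.5, Tcf4 up to 64.2 and the NK receptor gene Klrb1c up to 56.5 CPM. Cbx3 ran from 45.4 to 49.3 CPM in HP1γ KO and from 73.4 to 91.9 CPM in WT littermates, a log2 fold change of -0.82 ± 0.08 (SE, n = 4 per group, adjusted p = 0.0015 by edgeR's quasi-likelihood test). Cbx5 ran from 23.0 to 29.2 CPM in HP1α KO and from 33.9 to 54.6 CPM in WT, with no overlap, but this difference of -0.58 ± 0.15 was not called (adjusted p = 0.946).

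The genes lie on 7 different chromosomes of GRCm39 in a GENCODE annotation of that build. Foxp3 is at chrX:7439883-7461484 on the plus strand, with 13 exons in its canonical transcript, and overlaps the non-coding gene Flicr on the same strand, whose reads may in part have been assigned to either gene. Lrrc32 is at chr7:98138490-98151388 and Tnfrsf18 at chr4:156110621-156113352, both on the plus strand. Ctla4 (chr1:60926159-60954991, plus strand) and Ikzf2 (chr1:69570373-69727004, minus strand) share a chromosome. Il2ra is at chr2:11647618-11698004 (plus strand), Izumo1r at chr9:14797110-14815245 (minus strand) and Nrp1 at chr8:129085085-129231082 (plus strand).

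Because Foxp3, Lrrc32 and Ctla4 rose and fell together between samples (see the correlations given further on), the sequence before their start sites is shown, from the GRCm39 genome and outside every annotated exon of the gene itself. Capitals mark CG dinucleotides, the substrate of DNA methylation. The stretch before Foxp3 is chrX:7445658-7445805, that before Ctla4 chr1:60947934-60948183 and that before Lrrc32 chr7:98138654-98138903, all read on the plus strand. Those of Ctla4 and Lrrc32 are 250 bases that reach the canonical start site. That of Foxp3 has 148 bases and ends where an annotated exon of the gene begins, so that the bases next to the canonical start site are not shown. It holds 1 CG, against 6 in the full 250 bases.
Foxp3: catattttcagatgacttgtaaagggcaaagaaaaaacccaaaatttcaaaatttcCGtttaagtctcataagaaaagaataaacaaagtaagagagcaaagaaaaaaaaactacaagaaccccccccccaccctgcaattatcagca
Ctla4: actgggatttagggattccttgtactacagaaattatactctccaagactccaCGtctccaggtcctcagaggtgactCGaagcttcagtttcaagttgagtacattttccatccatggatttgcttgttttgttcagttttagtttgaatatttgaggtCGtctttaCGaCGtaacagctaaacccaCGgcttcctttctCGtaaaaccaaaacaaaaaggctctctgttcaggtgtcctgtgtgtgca
Lrrc32: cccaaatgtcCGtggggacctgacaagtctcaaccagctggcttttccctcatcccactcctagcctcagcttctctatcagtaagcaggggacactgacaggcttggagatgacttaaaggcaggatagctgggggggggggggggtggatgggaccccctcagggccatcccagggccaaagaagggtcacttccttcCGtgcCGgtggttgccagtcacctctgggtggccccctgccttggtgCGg

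The 3 stretches differ in base composition. G and C made up 34.5% of the 148 bases shown for Foxp3 and 36.4% of its full 250 bases. For the 250 bases of Ctla4 and Lrrc32 the shares were 42.4% and 61.6%. Over the full 250 bases before the canonical start site, the members held between 3 CG dinucleotides (Il2ra) and 52 (Ikzf2), against a median of 8 over 21770 protein-coding genes. Both strands of these 250 bases were searched for the letters GTAAACA of forkhead factors, TTCNNNGAA of STAT5 and TGTGGT of RUNX factors. No match overlapped another. The forkhead letters were in 0 of 8 members and in 2.7% of all promoters, and the RUNX letters in 0 of 8 and 13.0%. The STAT5 letters were in 1 of 8 members, Izumo1r, and in 7.7% of all promoters. They lie 166 bases before its start site (chr9:14815392-14815421, minus strand, match in capitals).
Izumo1r: ccgaggaagcTTCTGAGAAcaaaagatgaa

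On the TPM scale, which corrects for transcript length and so allows genes to be compared with each other, the surface receptors Ctla4 and Izumo1r were the most abundant of the signature. The mean over the 16 samples was 351 ± 62.0 TPM (SD) for Ctla4, the inhibitory receptor that binds CD80 and CD86, and 345 ± 41.1 TPM for Izumo1r, which encodes folate receptor 4. Tnfrsf18, which encodes the costimulatory receptor GITR, followed at 138 ± 18.9 TPM. Foxp3 (52.9 ± 14.6 TPM) and Nrp1 (52.8 ± 13.4 TPM), the latter a semaphorin co-receptor carried by many thymus-derived Treg, did not differ beyond their spread. Ikzf2, which encodes the Ikaros family factor Helios, was at 41.0 ± 8.86 TPM, and Lrrc32, which encodes the TGF-β docking receptor GARP, at 30.1 ± 17.3 TPM. Il2ra was the least abundant at 16.7 ± 3.51 TPM. The other chains of the IL-2 receptor were far above it, with means of 562 TPM for Il2rb and 661 TPM for Il2rg.

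No member passed the test between KO and WT in either line. In the values of each gene across samples below, CPM after TMM scaling are used, and a gene counts as called at an adjusted p under 0.05.

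**Figure D1:**
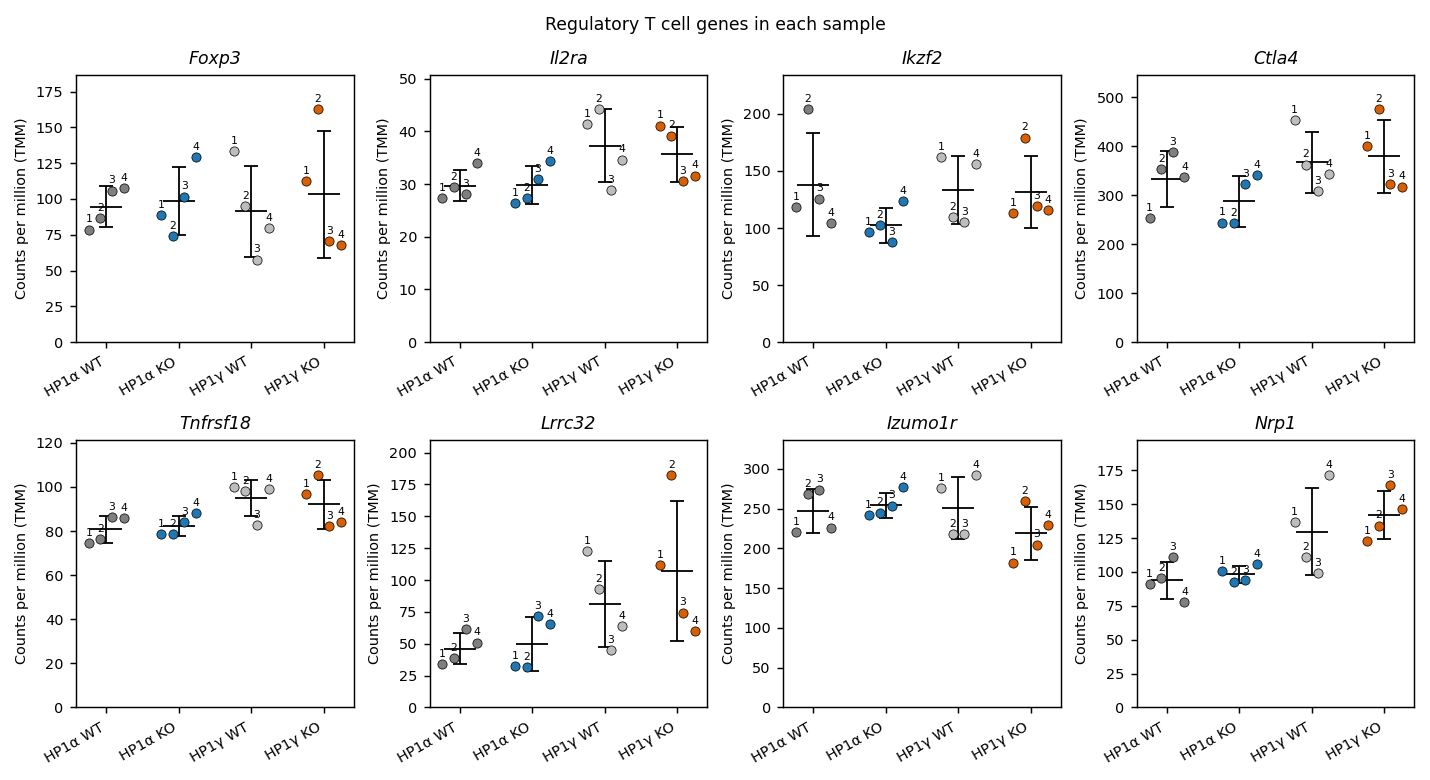
CPM (TMM-scaled) of the 8 signature genes in the 16 samples. Each point is 1 sample with its replicate number, and bars show the group mean ± SD (n = 4). The vertical axes start at 0. Foxp3 ran from 57.6 to 163 CPM and Lrrc32 from 31.4 to 183 CPM, with replicates 1 and 2 on the opposite side of replicates 3 and 4 in each group for both genes.

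Foxp3 was present in every sample and spread widely within groups. It was at 88.8, 74.1, 102 and 129 CPM in HP1α KO replicates 1 to 4, and at 78.6, 86.5, 106 and 108 CPM in their WT littermates. In the HP1γ line it was at 112, 163, 70.3 and 67.8 CPM in KO replicates 1 to 4 and at 133, 94.8, 57.6 and 79.8 CPM in WT. The groups overlapped in both lines. The lowest and the highest of all 16 samples, which differed 2.82-fold, were both of the HP1γ line, the lowest a WT and the highest a KO sample.

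The 4 group means of Foxp3 lay between 91.4 and 103 CPM. HP1γ KO was highest (103 ± 44.5 CPM, SD, n = 4), followed by HP1α KO (98.5 ± 23.5), HP1α WT (94.7 ± 14.4) and HP1γ WT (91.4 ± 31.8). No neighbours in this order differed beyond their spread (exact permutation p = 0.886, 0.829 and 0.829, two-sided, where 4 against 4 cannot go below 0.0286). The log2 fold change of KO over WT was 0.06 in the HP1α line (95% interval -0.31 to 0.42) and 0.20 in the HP1γ line (-0.48 to 0.88).

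Lrrc32, whose product GARP holds latent TGF-β at the surface of activated Treg, was the most variable of the signature. It was at 32.4, 31.4, 71.4 and 65.3 CPM in HP1α KO replicates 1 to 4 and at 34, 38.4, 61.7 and 50.8 CPM in WT. In the HP1γ line it was at 112, 183, 74.4 and 59.8 CPM in KO and at 123, 93.0, 45.2 and 64.1 CPM in WT. KO and WT overlapped in both lines, while replicates 3 and 4 were the higher ones in both groups of the HP1α line and replicates 1 and 2 in both groups of the HP1γ line. Its SD within groups was 0.61 on the log2-CPM scale, larger than that of 88.9% of the 15776 genes tested over the 16 samples, whose median was 0.20. The fold change of KO over WT was 0.12 on the log2 scale in the HP1α line (-0.53 to 0.76) and 0.43 in the HP1γ line (-0.39 to 1.24).

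Ikzf2 was the single member with an unadjusted p under 0.05 between a KO group and its WT littermates. It was at 96.1, 103, 87.7 and 123 CPM in HP1α KO replicates 1 to 4 and at 118, 204, 126 and 104 CPM in WT. The groups overlapped, and WT replicate 2 was the highest of all 16 samples. The log2 fold change was -0.43 ± 0.19 (SE, 95% interval -0.85 to -0.01), and its adjusted p was 0.946 by edgeR's quasi-likelihood test across all genes (unadjusted, 0.0451). Without HP1α WT replicate 2 the log2 fold change was -0.19, with an unadjusted p of 0.135, and DESeq2 on all 8 samples gave an unadjusted p of 0.0884. An exact permutation test of the CPM gave p = 0.114 (two-sided, n = 4 per group). In the HP1γ line Ikzf2 was at 113, 179, 119 and 116 CPM in KO and at 162, 110, 105 and 156 CPM in WT, where the fold change was 0.01 on the log2 scale (-0.40 to 0.42).

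Il2ra, the gene behind the sorting gate, ran from 26.4 to 44.2 CPM. Its SD within groups was 0.21 on the log2-CPM scale, near the median of 0.20 over all tested genes. It was at 26.4, 27.4, 31.0 and 34.3 CPM in HP1α KO replicates 1 to 4, at 27.3, 29.5, 28.1 and 34 CPM in their WT littermates, at 41.1, 39.2, 30.6 and 31.6 CPM in HP1γ KO and at 41.4, 44.2, 28.9 and 34.6 CPM in HP1γ WT. The log2 fold change of KO over WT was -0.00 in the HP1α line (-0.23 to 0.23) and -0.04 in the HP1γ line (-0.36 to 0.28).

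Ctla4 ran from 243 to 342 CPM in HP1α KO, from 253 to 388 in HP1α WT, from 318 to 475 in HP1γ KO and from 309 to 453 in HP1γ WT. The fold changes of KO over WT, -0.21 (-0.54 to 0.12) and 0.07 (-0.26 to 0.40) on the log2 scale, were within the spread.

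Tnfrsf18 was the steadiest member, with an SD within groups of 0.13 on the log2-CPM scale. It ran from 78.4 to 88.1 CPM in HP1α KO, from 74.4 to 86.4 in HP1α WT, from 82.1 to 106 in HP1γ KO and from 82.7 to 100.1 in HP1γ WT. Its intervals were the narrowest of the signature in the HP1α line, with a log2 fold change of 0.02 (-0.13 to 0.18), and it was at -0.02 (-0.24 to 0.19) in the HP1γ line.

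Izumo1r, also a marker of anergic CD4+ T cells, ran from 242 to 277 CPM in HP1α KO, from 220 to 274 in HP1α WT, from 182 to 260 in HP1γ KO and from 218 to 293 in HP1γ WT. HP1γ KO was the lowest of its 4 group means (219 ± 33.4 CPM, SD, n = 4), but the fold change against WT was -0.17 on the log2 scale (-0.46 to 0.11), and in the HP1α line it was 0.04 (-0.14 to 0.22).

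Nrp1 was at 100.4, 92.3, 94.0 and 106 CPM in HP1α KO replicates 1 to 4 and at 90.9, 95.5, 111 and 77.6 CPM in their WT littermates. In the HP1γ line it was at 123, 134, 164 and 146 CPM in KO and at 137, 111, 99.2 and 172 CPM in WT. Every HP1γ KO sample was above every sample of the HP1α line, whereas the HP1γ WT samples overlapped them. KO differed from WT by 0.06 (-0.15 to 0.28) in the HP1α line and by 0.15 (-0.20 to 0.50) in the HP1γ line on the log2 scale.

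**Figure D2:**
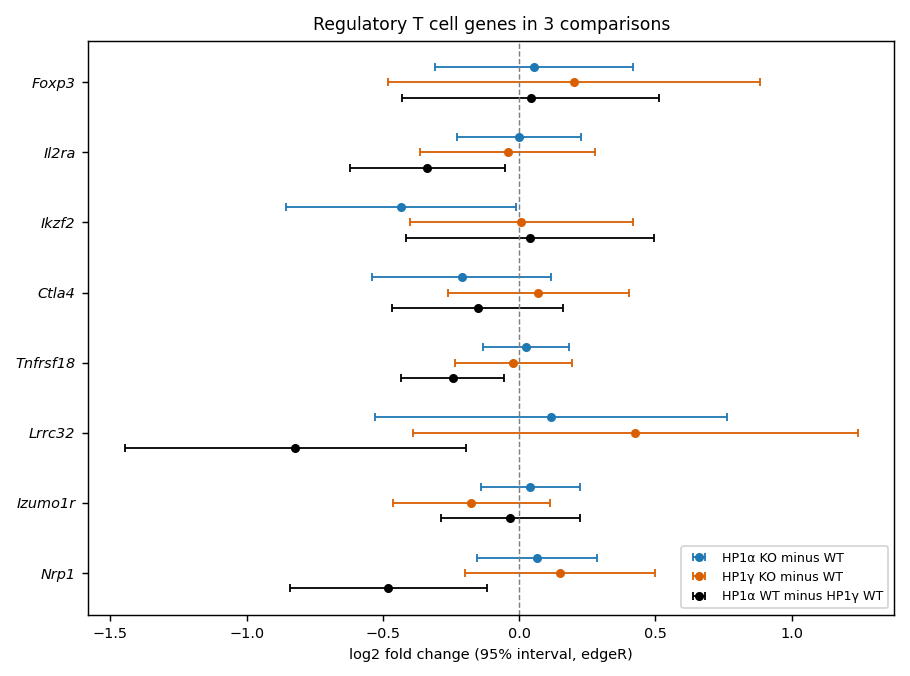
log2 fold changes of the 8 signature genes (points) with 95% intervals (bars) from edgeR in HP1α KO minus WT, HP1γ KO minus WT and HP1α WT minus HP1γ WT, 4 samples per group. The intervals of the KO comparisons include 0 except for Ikzf2 in the HP1α line, and those of Il2ra, Tnfrsf18, Lrrc32 and Nrp1 lie below 0 in the comparison of the WT groups.

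In HP1α KO against WT, 0 of 8 members were called by edgeR's quasi-likelihood test, as were 0% of the 14881 genes tested, and 1 of 8 had an unadjusted p under 0.05, against 4.27% of all genes. DESeq2 also called 0 of 8. KO and WT groups overlapped for all 8 members, and 3.11% of all genes had groups that did not overlap. The median log2 fold change of the members was 0.03, beside 0.00 over all genes.

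In HP1γ KO against WT, 0 of 8 members were called, and 0 had an unadjusted p under 0.05. Over all 14975 genes tested, 0.327% were called and 11.9% had an unadjusted p under 0.05. DESeq2 called 0 of 8 here too. The groups overlapped for all 8 members, against 7.59% of genes whose groups did not. The median log2 fold change of the members was 0.04, beside 0.00 over all genes.

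The effects of the knockouts did not differ detectably in any member. In the test of the HP1α effect minus the HP1γ effect over all 16 samples, 0 of 8 were called, against 0.0507% of 15776 genes, and 0 of 8 had an unadjusted p under 0.05, against 9.58% of all genes. DESeq2 called 0 of 8. The intervals were wide for the most variable genes, from -0.95 to 0.68 for Foxp3 and from -1.40 to 0.81 for Lrrc32 on the log2 scale, and narrow for Tnfrsf18 (-0.21 to 0.32).

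Between the WT groups of the lines, no member passed the adjusted test. Lrrc32 was at 46.2 ± 12.5 CPM (SD, n = 4) in HP1α WT and at 81.2 ± 33.8 CPM in HP1γ WT, and Nrp1 at 93.7 ± 13.7 and 130 ± 32.1 CPM. Il2ra was at 29.7 ± 3.0 CPM in HP1α WT and 37.3 ± 6.89 CPM in HP1γ WT, and Tnfrsf18 at 80.8 ± 6.23 and 95 ± 8.20 CPM. All 4 genes were lower on average in HP1α WT, but the samples of the groups overlapped for each. Foxp3, Ikzf2 and Izumo1r differed by at most 0.04 on the log2 scale between the WT groups.

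Of 8 members, 0 were called between the WT groups by edgeR's quasi-likelihood test, against 12.8% of 14804 genes. The members with an unadjusted p under 0.05 were 4 of 8, against 29.9% of all genes, all lower in HP1α WT. The log2 fold changes were -0.82 ± 0.28 (SE) for Lrrc32, -0.48 ± 0.16 for Nrp1, -0.34 ± 0.13 for Il2ra and -0.24 ± 0.09 for Tnfrsf18, with adjusted p between 0.0771 and 0.108. The groups did not overlap for 19.6% of all genes and for 0 of 8 members. With DESeq2 Nrp1 was called (adjusted p = 0.0238), and without HP1γ WT replicate 3 all 4 genes were called (adjusted p between 0.0300 and 0.0434).

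With KO and WT averaged in each line, a comparison of all 16 samples that was chosen after seeing the data, the same 4 genes were called and the other 4 were not. Nrp1 was at 95.9 ± 10.1 CPM (SD, n = 8) in the HP1α line and at 136 ± 24.8 CPM in the HP1γ line, 1.43-fold higher in the latter (adjusted p = 0.000871). Lrrc32 was 1.96-fold higher in the HP1γ line, at 48.2 ± 16.3 against 94.2 ± 44.4 CPM (adjusted p = 0.00749). Il2ra was 1.24-fold higher (29.7 ± 3.08 against 36.5 ± 5.75 CPM, adjusted p = 0.0155), and Tnfrsf18 1.16-fold higher (81.5 ± 5.16 against 93.5 ± 9.11 CPM, adjusted p = 0.0122).

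For all 4 of these genes the lines stood apart in replicates 1 and 2 but overlapped in replicates 3 and 4. The folds and p-values above leave this split out of account, and the share of all genes with such a split was not counted. In replicates 1 and 2, KO and WT together, Lrrc32 was at 31.4 to 38.4 CPM in the HP1α line and 93.0 to 183 CPM in the HP1γ line, and in replicates 3 and 4 at 50.8 to 71.4 and 45.2 to 74.4 CPM. Il2ra was at 26.4 to 29.5 against 39.2 to 44.2 CPM in replicates 1 and 2, and at 28.1 to 34.3 against 28.9 to 34.6 CPM in replicates 3 and 4. Tnfrsf18 was at 74.4 to 78.6 against 96.6 to 106 CPM, and at 84.1 to 88.1 against 82.1 to 98.9 CPM. Nrp1 was at 90.9 to 100.4 against 111 to 137 CPM in replicates 1 and 2, and at 77.6 to 111 against 99.2 to 172 CPM in replicates 3 and 4. Its overlap rested on HP1γ WT replicate 3 alone (99.2 CPM). The other HP1γ samples of replicates 3 and 4 were at 146 to 172 CPM, so that the difference in Nrp1 was not limited to replicates 1 and 2.

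Foxp3 itself was not called, with 96.6 ± 18.2 CPM in the HP1α line and 97.3 ± 36.4 CPM in the HP1γ line (log2 difference -0.02 ± 0.19, SE). Ctla4 missed the threshold at 1.22-fold higher in the HP1γ line (adjusted p = 0.0566). In this comparison 41.8% of the 15776 genes were called, so that 4 of 8 members is a share near that of all genes. The line and any genetic background or batch that went with it cannot be told apart.

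Plasmacytoid dendritic cells can carry Nrp1. With KO and WT averaged in each line, their markers Siglech and Tcf4 were called higher in the HP1γ line (adjusted p = 0.00294 and 0.000581 by edgeR). Bst2 was not called (adjusted p = 0.102). Of the 8 plasmacytoid and myeloid markers, 3 were called lower and 1 higher in the HP1α line, beside 41.8% of all genes called. Siglech was at 10.4 to 18.6 CPM in the 8 samples of the HP1α line, at 24.9 to 110.0 CPM in HP1γ KO and at 10.7 to 49.4 CPM in HP1γ WT. In the 2 samples with the highest Nrp1, HP1γ WT replicate 4 and HP1γ KO replicate 3, Siglech was at 11.4 and 24.9 CPM. The sample with the next highest Nrp1, HP1γ KO replicate 4 (146 CPM), held the highest Siglech of all, 110.0 CPM. The summed level of the 8 plasmacytoid and myeloid markers was 96.6 to 192 CPM in the HP1α line and 89.6 to 330 CPM in the HP1γ line, with none of the 8 at 0 in all samples of a group. Their part in the level of Nrp1 was not tested.

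Of 16 genes of Treg outside the signature, 0 were called in either KO comparison and 5 were called between the WT groups, all lower in HP1α WT, where 12.8% of all genes were called in either direction. The log2 fold change was negative for 13 of the 16 and positive for Itgae, Gpr83 and Il1rl1. The transcription factor Plagl1 was at 12.4 ± 5.12 CPM in HP1α WT and 38.6 ± 13.0 CPM in HP1γ WT (log2 fold change -1.64 ± 0.30, SE, adjusted p = 0.00906). Ccr8, a chemokine receptor of tissue and activated Treg, was at 10.0 ± 2.50 and 28.4 ± 7.48 CPM (-1.51 ± 0.22, adjusted p = 0.00396). The costimulatory receptors Icos, Tnfrsf4 and Tnfrsf1b, which encode ICOS, OX40 and TNFR2, differed by -0.48, -0.82 and -0.87 on the log2 scale (adjusted p = 0.0328, 0.0474 and 0.0475). The difference in Tnfrsf1b lay in replicates 1 and 2, at 206 and 229 CPM in HP1α WT and 675 and 686 CPM in HP1γ WT. Its replicates 3 and 4 were at 349 and 388 CPM in HP1α WT and 354 and 423 CPM in HP1γ WT. Tnfrsf4 was alike, at 45.7 and 56.7 against 161 and 123 CPM in replicates 1 and 2. In replicates 3 and 4 Tnfrsf4 overlapped, at 93.8 and 72.2 against 81.4 and 106 CPM. The median log2 fold change over the 16 genes was -0.49, beside 0.02 over all genes tested.

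Of 16 regulators of Foxp3, 5 were called between the WT groups, against 12.8% of all genes. The NF-κB subunit gene Rel (-0.80 on the log2 scale, adjusted p = 0.0048), Smad3 (-0.34, adjusted p = 0.0250), Usp7 (-0.24, adjusted p = 0.0411) and Nfatc1 (-0.30, adjusted p = 0.0485) were lower in HP1α WT, and the maintenance DNA methyltransferase gene Dnmt1 was higher (0.32, adjusted p = 0.0415). In both KO comparisons 0 of these 16 genes were called.

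The IL-2 receptor pathway, which maintains FOXP3 through STAT5, had 2 of 10 genes called between the WT groups, a share near the 12.8% of all genes, and 0 in the KO comparisons. Stat5a (-0.54, adjusted p = 0.0267) and the STAT5 target Cish (-0.71, adjusted p = 0.0403) were lower in HP1α WT. For Stat5a the difference lay mostly in replicates 1 and 2, at 109 to 124 CPM in HP1α WT against 212 to 217 CPM in HP1γ WT. In replicates 3 and 4 Stat5a was at 132 to 150 against 155 to 162 CPM. Il2rb, the most abundant gene of the list, was at 1108 ± 90.6 CPM in HP1α WT and 1357 ± 154 CPM in HP1γ WT and did not pass the test. Among suppressive effectors, 2 of 11 tested genes were called, also near the share of all genes. Both were lower in HP1α WT, Il10 at 11.8 ± 3.19 against 28.1 ± 5.96 CPM (adjusted p = 0.00527), and Areg, which encodes amphiregulin, at 14.9 ± 5.73 against 26.6 ± 5.59 CPM (adjusted p = 0.0426). Over all lists outside the signature, 17 genes were called between the WT groups, but 6 without HP1α WT replicate 1 or HP1γ WT replicate 1 or 2, and 7 without HP1α WT replicate 2. An absolute log2 fold change above 1, the study's added threshold, left 3.

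Foxp3, Lrrc32, Tnfrsf18, Ctla4 and Il2ra rose and fell together between samples of the same group. For each pair of members, Pearson's r was computed over the 16 samples from log2-CPM after the mean of each group had been subtracted, so that differences between lines and genotypes play no part. Foxp3 had r = 0.93 with Lrrc32, 0.92 with Tnfrsf18, 0.89 with Ctla4 and 0.83 with Il2ra (permutation test within groups with 100000 draws, two-sided, adjusted over the 28 pairs, p = 0.00056, 0.00056, 0.00056 and 0.00819). Spearman's rho was 0.89, 0.91, 0.89 and 0.84 for these pairs (adjusted p = 0.0007, 0.00123, 0.00084 and 0.0137). Without the 2 samples farthest from the median of Foxp3, r was 0.90, 0.92, 0.84 and 0.87.

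**Figure D3:**
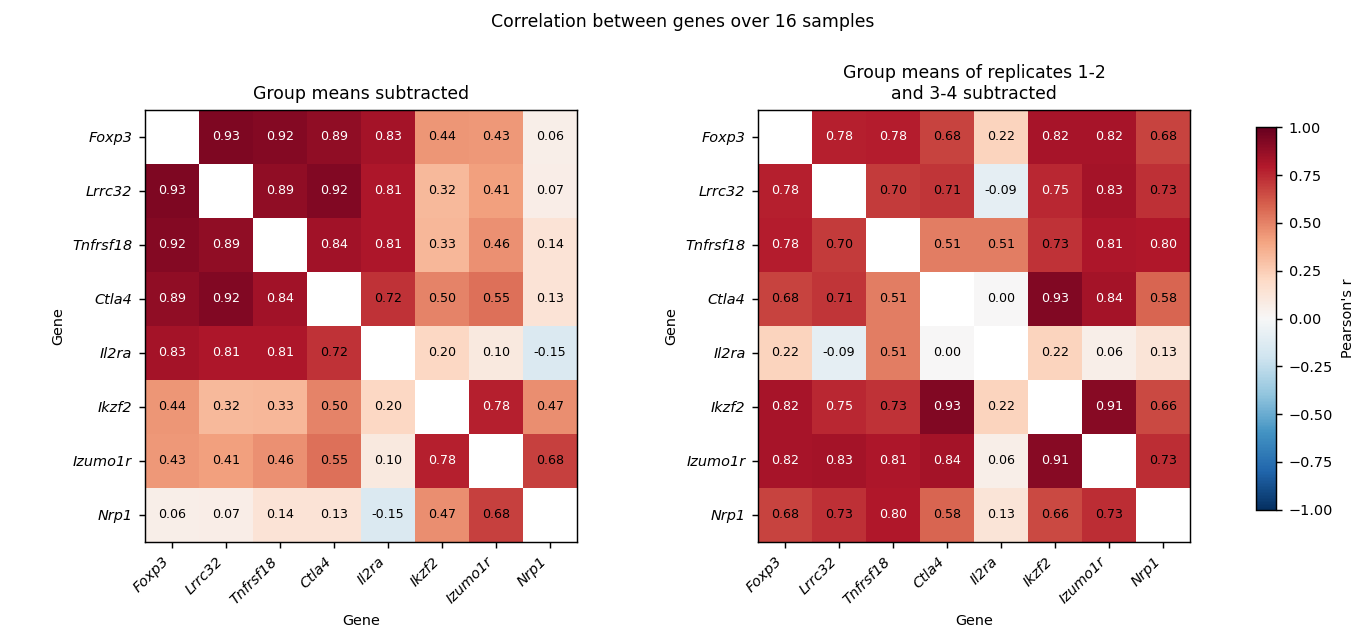
Pearson's r for each pair of the 8 signature genes over 16 samples, from log2-CPM, with colour from -1 to 1. Left, the mean of each group was subtracted. Right, the means of replicates 1 and 2 and of replicates 3 and 4 of each group were subtracted. At left Foxp3 is most like Lrrc32 (0.93) and least like Nrp1 (0.06), and at right Il2ra stands apart (0.22 with Foxp3) while Nrp1 does not (0.68).

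The 10 pairs among these 5 genes had r between 0.72 and 0.93, and all 10 had an adjusted p under 0.05 (0.0165 at most). The steadiest gene of the signature and the most variable one were among them, since Tnfrsf18 and Lrrc32 had r = 0.89 although Lrrc32 spread 5.82-fold between samples and Tnfrsf18 1.42-fold. Over all 28 pairs, r was positive in 27, its median was 0.48, and 13 pairs had a permutation p under 0.05, of which 11 remained after adjustment.

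Ikzf2 and Izumo1r formed the remaining pair past the adjustment, with r = 0.78 (permutation test, adjusted p = 0.0151) and rho = 0.79. Izumo1r and Nrp1 had r = 0.68 (permutation p = 0.0325, adjusted p = 0.0759). These 3 genes had lower values with Foxp3: r was 0.44 for Ikzf2, 0.43 for Izumo1r and 0.06 for Nrp1 (permutation p = 0.115, 0.190 and 0.870).

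Within each line alone, Foxp3 kept high values with the same genes. Over the 8 samples of the HP1α line, r was 0.86 with Lrrc32, 0.91 with Tnfrsf18, 0.83 with Ctla4 and 0.81 with Il2ra (exact permutation p = 0.0330, 0.00347, 0.0156 and 0.0365). Over the 8 samples of the HP1γ line, r was 0.99, 0.93, 0.99 and 0.85 (exact permutation p = 0.00174, 0.00694, 0.00174 and 0.0347). With Ikzf2 the lines stood apart, at r = -0.01 in the HP1α line and 0.72 in the HP1γ line (exact permutation p = 0.993 and 0.0712), a difference that was not tested. Over both lines this r became 0.64 (permutation p = 0.0452) without HP1α WT replicate 2, whose Ikzf2 was 204 CPM.

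**Figure D4:**
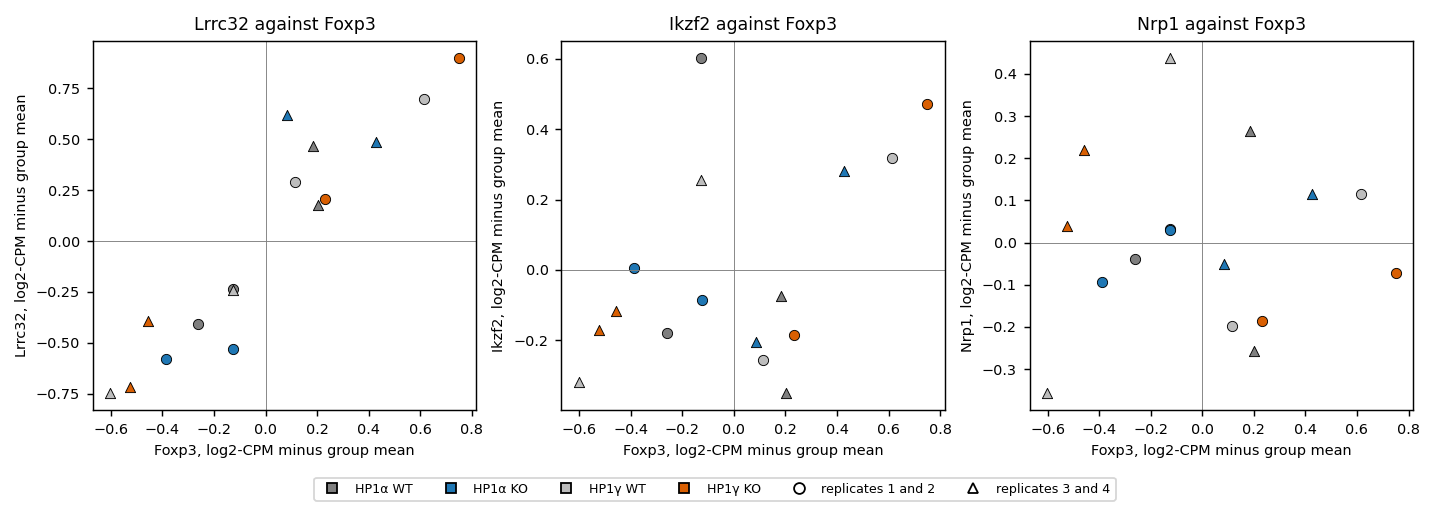
Lrrc32, Ikzf2 and Nrp1 against Foxp3, each as log2-CPM minus the mean of its group, for 16 samples. Colours show the 4 groups, circles replicates 1 and 2, and triangles replicates 3 and 4. Lrrc32 follows Foxp3 along a line (r = 0.93), with circles and triangles of a group at opposite ends, and Nrp1 does not (r = 0.06).

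For Foxp3 and Lrrc32 the rise and fall went with the replicate number in every group. In both groups of the HP1α line, replicates 3 and 4 were above replicates 1 and 2 for Foxp3, Lrrc32 and Tnfrsf18, and in both groups of the HP1γ line replicates 1 and 2 were above replicates 3 and 4 for Foxp3, Lrrc32, Ctla4 and Il2ra. For Ikzf2 no group was divided in this way, and for Izumo1r and Nrp1 1 group each was. The share of all genes divided in this way was not counted, and members that rise and fall together are not separate observations. In the HP1γ line the samples as a whole were split alike. There the chi-square per gene was 9.51 to 17.5 within replicates 1 and 2 or 3 and 4, and 23.3 to 37.1 across them. The HP1α line was not split so. Replicates 3 and 4 were at 23.02 in KO and 50.7 in WT, but KO replicates 2 and 4 at 13.96 and WT replicates 1 and 4 at 13.1. The labels do not say what the replicate number stands for, so that a shared day, litter or sort and a difference between animals cannot be told apart.

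With the means of replicates 1 and 2 and of replicates 3 and 4 subtracted in each group, an alternative chosen after seeing the data, the pattern among the members changed. Foxp3 had r = 0.78 with Lrrc32, 0.78 with Tnfrsf18, 0.68 with Ctla4 and 0.22 with Il2ra (exact permutation p = 0.125, 0.0469, 0.0312 and 0.617, where the smallest possible is 0.00781). Ikzf2, Izumo1r and Nrp1 then came closer to Foxp3, at r = 0.82, 0.82 and 0.68 (exact permutation p = 0.0547, 0.0625 and 0.0234). Il2ra was the member that fell away, with r between -0.09 and 0.51 with the other 7. The median r over the 28 pairs was 0.72, and 15 pairs had an exact p under 0.05, unadjusted.

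All genes were ranked by their likeness to Foxp3. Ranked by r over the 16 samples after subtraction of the group means, the 10 nearest of 15775 genes were Lrrc32, Tnfrsf9 (0.93), Ikzf4 (0.93), Rin2 (0.93), Cd2 (0.92), Ica1 (0.92), Tnfrsf18, Rhod (0.91), Slc16a10 (0.91) and Adora2a (0.91). Lrrc32 and Tnfrsf18 are members of the signature, Tnfrsf9 and Ikzf4 are on the list of other Treg genes, and the remaining genes are on neither. Tnfrsf9 encodes 4-1BB, a costimulatory receptor of activated T cells and Treg, Ikzf4 the factor Eos that acts with FOXP3, and Adora2a an adenosine receptor. Lrrc32 ranked 1, Tnfrsf18 7, Ctla4 17 and Il2ra 50 of 15775, whereas Ikzf2 ranked 2406, Izumo1r 2498 and Nrp1 7040. The subtraction by pairs of replicates, under which Ikzf2, Izumo1r and Nrp1 came closer to Foxp3 and Il2ra fell away, was not used for this ranking. Nor was it used for the lists and neighbours below.

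The 16 other genes of Treg had a median r of 0.81 with Foxp3, 13 of them were above 0.5, and 12 were among the 5% of genes with the highest r. Over all genes the median r was -0.01, and 11.5% were above 0.5. Gpr83 (0.88), an orphan receptor gene of Treg that was at only 2.46 to 5.47 CPM, Cd83 (0.90), Tnfrsf1b (0.85), Tnfrsf4 (0.84) and Ccr8 (0.82) were near the top. Capg, Il1rl1 and Socs2 were not, at 0.14, 0.05 and 0.03. Among regulators, Rel (0.80) and Foxo1 (0.78) had the highest values and Dnmt1 the lowest (-0.70).

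**Figure D5:**
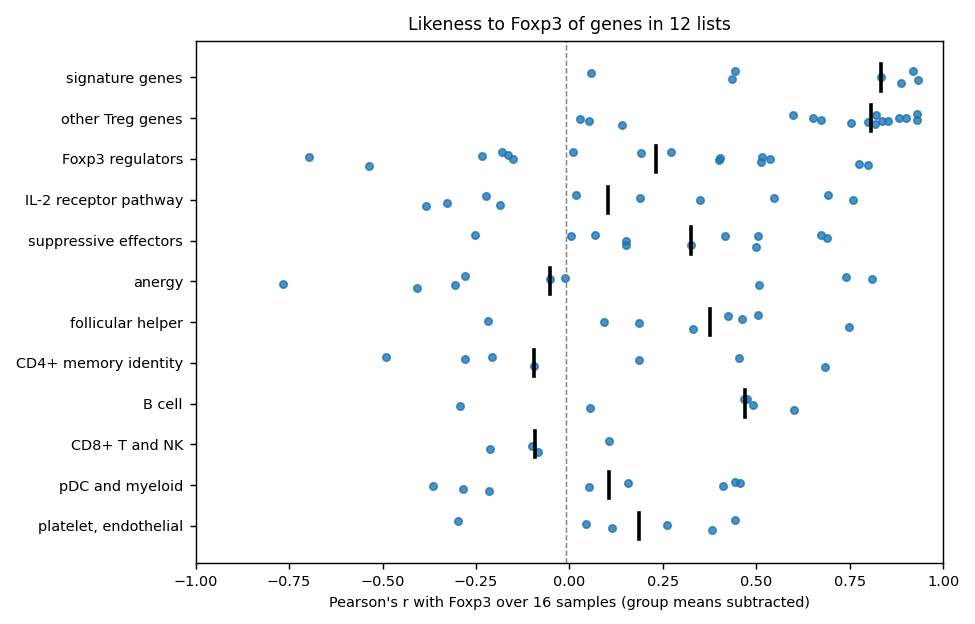
Pearson's r with Foxp3 over 16 samples, after subtraction of the group means, of each gene (points) in 12 lists, with the median of a list as a black bar and the median of all genes as a dashed line. The other Treg genes have a median of 0.81, and the lists of CD8+ T and NK, plasmacytoid and myeloid, and platelet and endothelial genes have no gene above 0.5.

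Markers of other cells did not follow Foxp3 as a group. In the lists of CD8+ T and NK cells, of plasmacytoid and myeloid cells and of platelets and endothelium, 0 genes had r above 0.5 with Foxp3. The B cell list had a median of 0.47 with 1 gene above 0.5, Ms4a1 at 0.60, whose level did not exceed 1.74 CPM. The list of follicular helper genes, a CD4+ population that shares Ctla4 and Icos with Treg, had a median of 0.38, with Bcl6 at 0.75 and Cxcr5 at 0.51.

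Foxp3 was also set beside the total count of a sample and the summed CPM of 6 of these lists, 7 measures chosen after seeing the data. None had an adjusted p under 0.05 in a permutation test within groups. The total count had r = -0.22 and rho = -0.26 with Foxp3 (permutation p = 0.487 and 0.386, adjusted p = 0.980 and 0.676), and -0.11 without the 2 farthest samples. The summed follicular helper genes had the highest value, r = 0.48 and rho = 0.33 (permutation p = 0.0946 and 0.257, adjusted p = 0.662 and 0.676), which became 0.13 without the 2 farthest samples. For the sums of B cell, plasmacytoid and myeloid, CD8+ T and NK, platelet and endothelial, and CD4+ memory markers, r lay between -0.36 and 0.03.

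The genes most like each other member were ranked in the same way. Nearest to Ctla4 were Il1r2 (r = 0.97), the decoy receptor of IL-1, Cd83 (0.95), Phlpp1 (0.95), Tnfrsf9 (0.94) and Dnase1l3 (0.93). Nearest to Lrrc32 were Adora2a (0.97), Cd83 (0.96), Il1r2 (0.96), Ccr8 (0.95) and Mapkapk2 (0.94). Cd83 and Il1r2 were thus in the first 5 of both, and Foxp3 ranked 20 for Ctla4 and 8 for Lrrc32.

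Among the genes nearest to Tnfrsf18 were Igf2r (0.94), Foxp3 (0.92), Plagl2 (0.91) and Ikzf4 (0.90). Il2ra was nearest to Map3k1 (0.95), Arhgap20 (0.92), Samsn1 (0.90), Zbtb46 (0.90) and Tmem64 (0.90). Arhgap20 was barely expressed, at a mean of 0.454 CPM.

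Ikzf2 had other neighbours: the lipid desaturase gene Scd2 (0.95), the replication helicase subunit gene Mcm6 (0.92), Sccpdh (0.92), Mcm8 (0.90) and Slc22a15 (0.89). Izumo1r was nearest to Sh3rf1 (0.92), Cyfip1 (0.91), Tox (0.90), which encodes a factor of chronically stimulated and follicular helper T cells, Myo1h (0.89) and E130308A19Rik (0.89). Nrp1 was nearest to the T cell receptor segment Trav13n-2 (0.87), the mitotic phosphatase gene Cdc25b (0.86), Inpp5f (0.86), Aplp1 (0.83) and Cd99l2 (0.83). None of the first 5 genes of Ikzf2, Izumo1r or Nrp1 was a member of the signature or of the list of other Treg genes.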

How the data were processed

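Groups were taken from the genotype labels and titles given by the submitters. A treatment label about transferred cells contradicts the study's description of these memory cells and was left aside. Reads were 150 bp pairs from a stranded mRNA library kit. As the study describes, trimming used Trim Galore, alignment to GRCm39 used STAR, and Salmon within nf-core gave gene values. The authors deposited estimated counts per gene without normalization, which need not be whole (11.6% of values are not). The authors also deposited TPM, which keep no depth.

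Estimated counts were rounded and tested with edgeR 4.0.16 in R 4.3.3 (TMM, filterByExpr with a minimum count of 10, estimateDisp, glmQLFit and glmQLFTest) across all genes, with Benjamini-Hochberg adjustment over all genes tested and a threshold of 0.05. All 8 members passed the filter in every fit. Correlations used log2-CPM with a prior count of 2. Alternatives were DESeq2 1.42.0, RLE size factors, other filters, all samples in one fit, a replicate block, limma 3.58.1 on log2(TPM + 1) and log2(TPM + 0.1), the study's added threshold of an absolute log2 fold change above 1, and omission of each sample. The scripts were tested on simulated data. No 2 replicates agreed within sampling noise (the chi-square per gene between replicates was at least 9.51).

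The members and lists were chosen with earlier results of these data known. Named genes are the 8 members, Cbx5 and Cbx3, in each other list the genes called (up to 5) and the 2 most abundant, the 10 genes most like Foxp3 and the 5 most like each other member, of which 1 is not reported here. Genes named beyond this were chosen after their values were seen. Promoters are the 250 bases before the canonical start site in a GENCODE annotation of GRCm39, which is not stated to be the release the authors counted on. Samples held 26694045 to 40199637 counts, and the depth limits the precision of genes with few counts.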

Additional observations from a re-analysis of the deposited data

Results flagged for a closer look

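Among the 32 sets of 4 samples (8 genes in 4 groups), 2 held a sample far from the other 3 by Dixon's criterion, where chance flags about 1 in 20. Ikzf2 was at 179 CPM in HP1γ KO replicate 2, while the other HP1γ KO samples were at 113, 116 and 119 CPM. The same sample held the highest Foxp3, Lrrc32, Ctla4 and Tnfrsf18 of all 16. Tnfrsf18 was at 82.7 CPM in HP1γ WT replicate 3, while the other HP1γ WT samples were at 98.1 to 100.1 CPM, and that sample also held the lowest Foxp3 of all 16 and the lowest Il2ra, Ikzf2, Ctla4, Lrrc32 and Nrp1 of its group.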

How the results depend on the processing

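The count of members called stayed at 0 in both KO comparisons and in the difference between them under every alternative run. Between the WT groups it became 1 with DESeq2, without a filter, with all samples in one fit and with limma under each TPM setting, ranged from 0 to 4 when single samples were left out, and was 4 with KO and WT averaged in each line. For genes of the other lists, the count in HP1γ KO against WT was 1, namely Klrk1, and became 0 with the replicate block, each limma setting and the added fold threshold, and 0 to 1 without single samples. Between the WT groups it was 17 and became 4 with the replicate block, 11 with limma on genes of at least 1 TPM, 3 with the fold threshold, 42 with the averaged lines and 6 to 21 without single samples. The pairs of members with p under 0.05 numbered 8 in the HP1α line alone, against 13.

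With the replicate block, that is with the means of same-numbered samples of a line also subtracted, r turned to -0.0910 for Foxp3 with Il2ra, -0.0535 for Il2ra with Ctla4 and -0.0819 for Il2ra with Tnfrsf18, and rose to 0.94 for Foxp3 with Ikzf2 and 0.96 with Izumo1r. With the means of replicates 1 and 2 and of 3 and 4 subtracted, Il2ra with Lrrc32 turned to -0.0924. The causes were not tested. In the block fit 0, 60, 13 and 577 genes were called over all genes in HP1α, HP1γ, the difference of effects and the WT groups, against 0, 49, 8 and 1896 without it. In the HP1α line 3 of 4 KO samples correlated best with the WT sample of their own number, in the HP1γ line 1 of 4, and between the WT groups 0 of 4. DESeq2 called 5, 256, 76 and 2823 genes. Depth did not limit the members, whose lowest level was 26.4 CPM. With 4 samples per group, however, intervals spanned over 1 log2 unit for Lrrc32 in both lines and for Foxp3 in the HP1γ line.

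Same-numbered samples were checked for shared deviations from their group's means over all genes. The correlations were 0.0940 to 0.228 in the HP1α line, 0.00286 to 0.153 in the HP1γ line and -0.204 to -0.0654 between the WT groups. Those within a line were positive but low, and the numbers were not taken to pair the samples. The values between the WT groups say nothing of pairing within a line.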

Other observations

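Genes of anergy, a state of CD4+ T cells that shares folate receptor 4 with Treg, were measured beside the signature. None of 9 was called in either KO comparison by edgeR's quasi-likelihood test, with 0 at an unadjusted p under 0.05 in both and a median log2 fold change of 0.03 in the HP1α line and -0.00 in the HP1γ line. Between the WT groups, where 2 of 9 were called beside 12.8% of all genes, Egr3, a transcription factor gene induced by the T cell receptor, was lower in HP1α WT (26.2 ± 3.57 against 34.3 ± 2.25 CPM, SD, n = 4, adjusted p = 0.0272). Dgka, which encodes a diacylglycerol kinase that dampens T cell receptor signals, was higher (852 ± 50.4 against 636 ± 57.2 CPM, adjusted p = 0.0114). Dgkz, a related kinase gene, was at 645 to 924 CPM over all samples. Within groups, Cblb (r = 0.81), Ndrg1 (0.74) and Egr2 (0.51) had positive values with Foxp3 over the 16 samples, and Dgka (-0.77) and Egr3 (-0.41) negative ones.

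Of 8 follicular helper genes, 0 were called between KO and WT in either line or between the WT groups by edgeR's quasi-likelihood test. With KO and WT averaged in each line, where 41.8% of all genes were called, Bcl6 was lower in the HP1α line (38.4 ± 8.11 against 64.4 ± 15.8 CPM, SD, n = 8, adjusted p = 0.000745) and Sh2d1a higher (47.5 ± 7.36 against 37.1 ± 4.86 CPM, adjusted p = 0.00939). In the HP1α line 7 of 8 had a negative log2 fold change of KO over WT, with a median of -0.24 and 0 at an unadjusted p under 0.05. Maf, the most abundant, was at 257 to 368 CPM over all samples, and Tox2 at 49.4 to 132 CPM. Among suppressive effectors Tgfb1 was at 198 to 318 CPM and Nt5e, which encodes CD73, at 107.1 to 211 CPM, and among IL-2 receptor genes Jak1 was at 768 to 929 CPM.

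Among CD4+ memory genes, Cd44 was called between the WT groups (285 ± 18.4 CPM in HP1α WT, 360.1 ± 17.4 in HP1γ WT, adjusted p = 0.0104), and Trac was at 691 to 839 CPM. Klrk1, which encodes the activating receptor NKG2D, was the single gene of the lists called between KO and WT: it fell in HP1γ KO to 23.3 ± 1.62 CPM from 35.5 ± 4.27 CPM (adjusted p = 0.0385). With single samples left out in turn, Klrk1 was called only in the absence of HP1γ WT replicate 2. The related Klrb1c was at 29.9 to 56.5 CPM over all samples. DESeq2 called 0 genes of the lists in HP1α KO against WT and 1 in HP1γ KO against WT. In both lists of B cell and of plasmacytoid and myeloid genes 0 were called between KO and WT or between the WT groups, with Cd22 at 29.1 to 56.2 CPM, Cd79b at 2.34 to 6.67 CPM, Bst2 at 38.1 to 79.5 CPM and Lyz2 at 14.7 to 83.0 CPM. With KO and WT averaged in each line, Siglech, Tcf4 and Flt3 were lower in the HP1α line (adjusted p = 0.00294, 0.000581 and 0.0482 by edgeR) and Lyz2 and Cd79b higher (adjusted p = 0.0369 and 0.0490). The platelet and endothelial list, with 0 called in all of these comparisons, was carried by Pecam1, which T cells express, at 111 to 140.4 CPM, with Itga2b at 2.35 to 5.10 CPM.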
